A study of Mus musculus with 6 samples.

Results

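B cell, T cell and natural killer (NK) cell genes were examined in livers of athymic mice that carried a human liver tumor. The genes were 9 of the 56884 genes of the mouse count table, chosen by name for the lymphocyte type they mark. For B cells these were Ighm, Igkc, Cd79a and Ms4a1, for T cells Cd3e and Trbc2, and for NK and other cytotoxic cells Ncr1, Klrb1c and Gzma. All 9 were found in the table. The rule that names them uses no measured value, but they were chosen with earlier results of these data known.

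Bulk RNA was sequenced from 6 livers, 3 labelled siControl and 3 labelled siAATF. All mice were male BALB/c (nu/nu) mice, 6 weeks of age, that received cells of the human hepatocellular carcinoma line QGY-7703 directly in the liver. After 1 week an adeno-associated virus of serotype 8 was given by the tail vein, carrying either a control siRNA or the siRNA against mouse Aatf, and the animals were kept for a further 3 weeks. The siControl livers are labelled WT and the siAATF livers KD. Athymia and tumor were therefore common to both groups, and no liver without a tumor or from a mouse with a thymus was analysed here. The TBG promoter that drove the siRNA is active in hepatocytes.

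Lymphocytes recognise antigen through receptors that each cell assembles from gene segments. B cells carry immunoglobulin, made of heavy and light chains, and display it together with the signalling chains CD79A and CD79B, whereas T cells carry a T cell receptor bound to the CD3 chains. T cells need the thymus to mature, so nu/nu mice have few of them, but B cells and NK cells form in the bone marrow and are kept. NK cells kill with perforin and granzymes without a rearranged receptor, and they are a large lymphocyte population of the normal mouse liver.

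The libraries differed widely in how many mouse reads they held. Mouse gene counts ranged from 213022 to 913584 in the siControl livers and from 11835898 to 42563694 in the siAATF livers, which was 0.778% to 1.93% of the counts of both species in the siControl livers and 97.9% to 99.0% in the siAATF livers. A gene without a count can still have a level of up to 3 counts, which is 3.28 to 14.1 counts per 1000000 mouse counts (CPM) for siControl but only 0.0705 to 0.253 CPM for siAATF. Such limits cover counting error only. Mouse Aatf, the siRNA target, had 12, 1 and 23 counts across siControl replicates 1 to 3 and 384, 109 and 340 in the siAATF livers. After TMM normalization it had 9.62, 2.41 and 12.8 CPM against 13.2, 21.96 and 18.8 (log2 fold change 0.93, adjusted p = 0.152 by edgeR), and no other scale is given. The study reported silencing of AATF protein in the mouse tissue around the tumor by immunoblot and immunostaining. The names siControl and siAATF below are those on the labels. The labelled tissue was checked with 8 hepatocyte genes, whose summed level was 2859 to 6958 CPM in the siControl livers and 36670 to 104630 CPM in the siAATF livers, and all 8 had counts in every library. As CPM of the counts of both species, this sum was 43.3 to 238 in the siControl livers and 15050 to 57024 in the siAATF livers. The labels give liver for all 6 libraries and do not say which piece of tumor or liver was taken. Since the share of mouse counts moved with the group, a difference in the tissue sampled and an effect of the siRNA cannot be told apart in any comparison below. Per mouse count all 8 hepatocyte genes rose and all 8 general leukocyte genes, among them Ptprc (CD45), fell in the siAATF livers, with median log2 fold changes of 4.92 and -4.35, which became 9.10 and -0.08 with all gene counts as library size. Levels below are TMM-normalized CPM of mouse counts. Unless another scale is named, per mouse count, rose and fell refer here and below to TMM-scaled mouse counts. In bulk tissue fewer cells of a type and less RNA per cell cannot be told apart.

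The immunoglobulin genes Ighm and Igkc had the highest levels per kilobase of the 9 genes, and none of the 4 B cell genes passed the test for a difference between the groups, whereas the T cell gene Trbc2 and the cytotoxic gene Gzma fell. Of the 9 genes, 7 had the total of at least 10 counts needed for testing. Trbc2 and Gzma were lower in siAATF at an adjusted p under 0.05, and 0 genes were higher (quasi-likelihood test of edgeR, adjusted over 18018 genes by the Benjamini-Hochberg method). Among all tested mouse genes, 14.4% were called lower and 17.6% higher, so 2 of 7 called lower stands beside a background of 14.4%. By the criteria of the study, an unadjusted p under 0.05 and an absolute log2 fold change of at least 2, the same 2 genes were lower, beside 13.1% of all tested genes. At an unadjusted p under 0.05 the count of higher genes among the 7 was also 0, since the remaining 5 had p between 0.111 and 0.998, and DESeq2 and limma-voom also called 0 higher. Each call rested on few counts, with 22 counts of Trbc2 and 56 of Gzma over all libraries. Without siControl replicate 3, 0 of the 9 genes were called: Trbc2 then had too few counts for testing and Gzma had an adjusted p of 0.0864 (edgeR). Igkc, Ms4a1, Cd3e and Klrb1c overlap other annotated genes, which held at most 4 counts each. The plot of the 9 genes by library shows both the levels and the counts behind them.

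**Figure D1:**
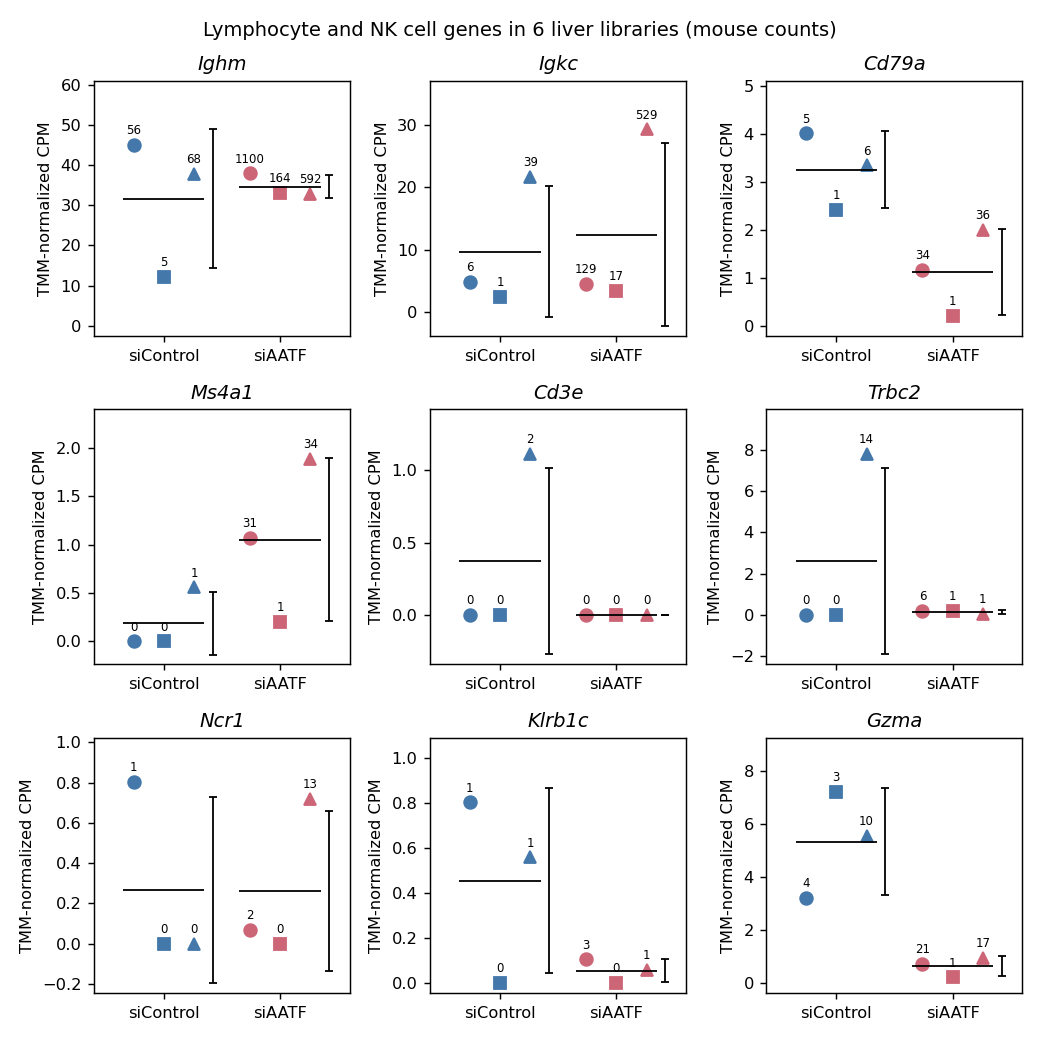
Each panel plots 1 gene, with TMM-normalized CPM of mouse counts on the y axis, the siControl libraries in blue and the siAATF libraries in red (circle, replicate 1; square, replicate 2; triangle, replicate 3). The number over a point is its raw count, the horizontal line is the group mean and the bar is the SD of 3 libraries, which extends below 0 where 1 library carries the mean. Gzma and Cd79a have siControl points that all lie above the siAATF points, and Trbc2 has 14 of its 22 counts in siControl replicate 3.

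Ighm encodes the constant part of the heavy chain of IgM, the first immunoglobulin class that a B cell makes. It lies on the minus strand of chromosome 12 (GRCm39, 113382178 to 113386350, ENSMUSG00000076617). Its raw counts were 56, 5 and 68 across siControl replicates 1 to 3 and 1100, 164 and 592 in the siAATF livers. The corresponding levels were 44.9, 12.1 and 37.9 CPM in the siControl livers and 37.9, 33.0 and 32.8 CPM in the siAATF livers. The siAATF libraries lay close together and within the range of siControl, in which replicate 2 was low with 5 counts. The means were 31.6 ± 17.3 (SD, n = 3) and 34.6 ± 2.89 CPM, a log2 fold change of 0.05 (standard error 0.41, 95% interval -0.84 to 0.95, adjusted p = 0.940 by edgeR).

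Igkc encodes the constant region of the kappa light chain, which most mouse antibodies use. The gene lies on the plus strand of chromosome 6 (70703419 to 70703950, ENSMUSG00000076609). Its levels were 4.81, 2.41 and 21.7 CPM in the siControl livers and 4.45, 3.43 and 29.3 CPM in the siAATF livers. Replicate 3 was the high library in each group, with 39 of the 46 siControl counts and 529 of the 675 siAATF counts, and the groups overlapped. The log2 fold change was 0.17 (standard error 0.83, adjusted p = 0.901 by edgeR). It was -1.41 without siAATF replicate 3 (adjusted p = 0.0961) and 1.62 without siControl replicate 3 (adjusted p = 0.340). The ratio of Ighm to Igkc counts was 9.33, 5 and 1.74 in the siControl livers and 8.53, 9.65 and 1.12 in the siAATF livers, so replicate 3 of each group had the lowest ratio. In siAATF replicate 3 the summed level of 5 neutrophil genes was 137 CPM, against 2.79 and 2.22 in siAATF replicates 1 and 2, and in siControl it was 90.6, 1889 and 1396 CPM. The part of these cells in the Igkc levels was not tested.

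The heavy chain class was read from counts on the heavy chain constant genes. Whether these transcripts came from rearranged genes or were made into immunoglobulin was not tested. Ighm and Ighd are the classes of B cells that have not switched, and the IgG and IgA genes mark switched cells. Ighm made up 90.3%, 100% and 54.0% of the counts on the 8 heavy chain constant genes across siControl replicates 1 to 3 and 96.4%, 97.6% and 81.9% in the siAATF livers. The switched classes had 1 of 62, 0 of 5 and 54 of 126 heavy chain counts in the siControl livers and 7 of 1141, 2 of 168 and 87 of 723 in the siAATF livers. Replicate 3 therefore held the largest switched share in both groups, 42.9% (exact 95% interval 34.1% to 52.0%) in the siControl livers and 12.0% (9.75% to 14.6%) in the siAATF livers. In siControl replicate 2 the 0 of 5 switched counts allowed a share of up to 52.2%. Classes differed between these 2 libraries: siControl replicate 3 had 42 counts of Ighg1 and 0 of Ighg3, and siAATF replicate 3 had 0 counts of Ighg1 and 52 of Ighg3. Ighg1 was called lower in siAATF (adjusted p = 0.00329 by edgeR), but all of its 42 counts came from siControl replicate 3, and without that library it had 0 counts everywhere. The reference genome is that of the C57BL/6J strain, which has Ighg2c where BALB/c mice have Ighg2a, and 16 counts were assigned to Ighg2c.

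**Figure D2:**
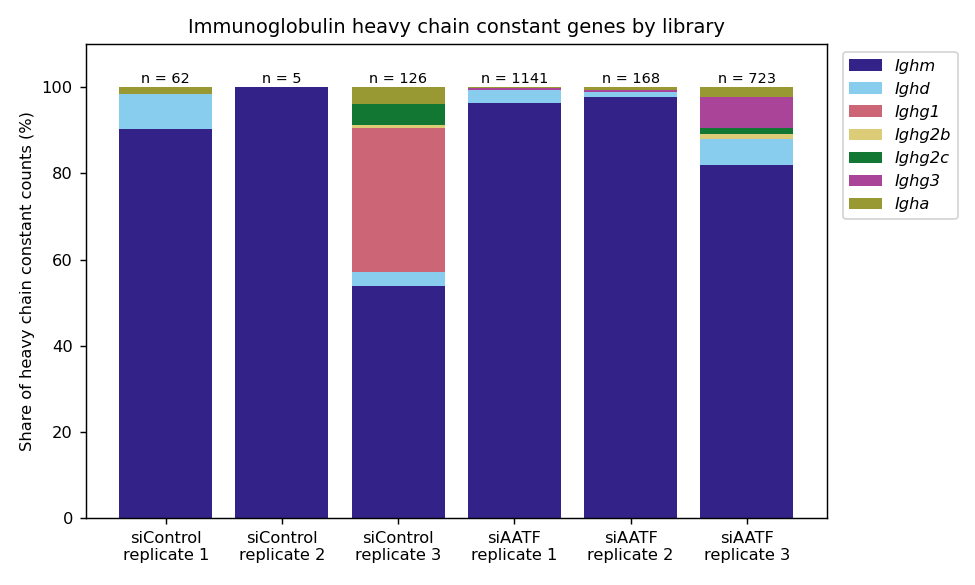
Stacked bars give the share of each heavy chain constant gene among all heavy chain constant counts of a library (y axis, percent), with the number of counts above each bar. Ighm takes at least 81.9% of the counts in 5 libraries and 54.0% in siControl replicate 3, where Ighg1 takes 33.3%, whereas Ighg3 takes 7.19% in siAATF replicate 3.

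Cd79a encodes a chain that passes the signal of the B cell receptor into the cell. It lies on the plus strand of chromosome 7 (24596806 to 24601622, ENSMUSG00000003379). It had 5, 1 and 6 counts in the siControl livers and 34, 1 and 36 in the siAATF livers, which gave 4.01, 2.41 and 3.34 CPM against 1.17, 0.201 and 1.99 CPM. Every siControl level lay above every siAATF level, a pattern in this direction that 18.1% of all tested genes showed. The log2 fold change of -1.50 (standard error 0.87) did not pass the test (adjusted p = 0.214 by edgeR). Its partner chain Cd79b had nearly equal counts, with 1, 1 and 0.667 counts of Cd79a per count of Cd79b in the siControl livers and 1, 0.5 and 1 in the siAATF livers. The count of Ighm per count of Cd79a, by contrast, was 11.2, 5 and 11.3 in the siControl livers and 32.4, 164 and 16.4 in the siAATF livers, without overlap. However, the values of 164 and of 5 each rest on 1 count of Cd79a, and those of 11.2 and 11.3 on 5 and 6. These ratios were not tested.

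Ms4a1 encodes CD20, a surface protein of mature B cells. Its place is the minus strand of chromosome 19 (11227039 to 11243605, ENSMUSG00000024673). Its counts were 0, 0 and 1 in the siControl livers and 31, 1 and 34 in the siAATF livers. The levels were 0, 0 and 0.557 CPM against 1.07, 0.201 and 1.88 CPM, and siAATF replicate 2 lay below siControl replicate 3. Per TMM-scaled mouse count the siAATF libraries had 4.38 times the siControl level, with a 95% counting interval of 0.760 to 176 that includes no difference. The fitted log2 fold change was 1.95 (standard error 1.48, adjusted p = 0.332 by edgeR).

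Of 30 other tested genes in 4 B cell lists, 7 fell (23.3%, beside 14.4% of all tested genes) and Derl3 alone rose, beside 17.6%. Of 12 genes of the B cell receptor and surface, 10 were tested, 3 fell in siAATF (Cd22, Cd72 and Fcrla) and 0 rose, with a median log2 fold change of -1.52 beside 0.50 over all tested genes. Cd72, an inhibitory receptor that macrophages also carry, had the lowest value of these, -6.20 (adjusted p = 2.3e-05 by edgeR), with 80, 11 and 130 counts in the siControl livers and 16, 3 and 19 in the siAATF livers. Cd22, an inhibitory coreceptor, had 5, 3 and 9 counts against 10, 3 and 33 and a log2 fold change of -2.44 (adjusted p = 0.0448). Among 10 genes of B cell signalling and transcription, all tested, Btk and Blnk fell and 0 rose, with a median of -0.82, or -0.97 with Vpreb3, which had 0 counts in siControl, at the bound that 3 counts over the group allow. Btk, a kinase of B cells and myeloid cells, had 25, 5 and 29 counts in the siControl livers and 23, 3 and 20 in the siAATF livers, nearly the same numbers in libraries of very different mouse totals. Ebf1, a factor of early B cell development, had 2, 7 and 4 counts against 46, 4 and 10 and was not called (-2.44, adjusted p = 0.0838). Pax5, the factor that fixes B cell identity, had 0, 1 and 1 counts against 16, 9 and 18 and was not called (log2 fold change 0.73, adjusted p = 0.692). Among 12 immunoglobulin constant genes 10 were tested, with Ighg1 as the 1 called, and the median was -0.68. Among 6 plasma cell genes 4 were tested. Prdm1, a factor that drives plasma cell formation and is also present in other cells, fell (log2 fold change -5.49, adjusted p = 0.000148). Derl3, which acts in protein quality control of secretory cells, rose (3.08, adjusted p = 0.0274) with 566, 33 and 58 counts in the siAATF livers. Jchain, which joins IgM and IgA into polymers, had 0, 0 and 6 counts in the siControl livers and 17, 2 and 57 in siAATF and was not called (-0.06, adjusted p = 0.977). Tnfrsf17, a receptor of plasma cells, had 0 counts in every library.

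Counts on the variable segments of the receptors were sparse. Of 218 immunoglobulin variable genes of the annotation, 41 had a count, 34 of them kappa, 5 heavy and 2 lambda genes. The number with a count was 3, 1 and 4 in the siControl livers and 9, 0 and 36 in the siAATF livers, so siAATF replicate 3 held most of the variety. The summed variable counts were 3, 1 and 9 in the siControl livers and 12, 0 and 72 in the siAATF livers, against 68, 8 and 173 and 1292, 189 and 1287 constant counts. Of 144 T cell receptor variable genes, 3 had a count, with 3 counts in all, and T cell receptor constant genes held 7, 2 and 38 counts in the siControl livers and 19, 2 and 19 in the siAATF livers. A pseudogene, Trav4-1, stood apart with 240 counts in siAATF replicate 3 against 0 to 9 in the other libraries. Rearranged variable regions carry many changes from the genome, and the study discarded reads with several mismatches or several places, so reads with more changes than allowed are missing from these sums.

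Cd3e encodes a signalling chain of the T cell receptor complex. The gene is on the minus strand of chromosome 9 (44910038 to 44920911, ENSMUSG00000032093). It had 2 counts in siControl replicate 3 and 0 counts in each of the other 5 libraries. A count of 0 allowed up to 4.27 and 14.1 CPM in siControl replicates 1 and 2 and up to 0.0705, 0.253 and 0.0858 CPM in siAATF replicates 1 to 3, by mouse library size. The gene was below the minimum for testing, and with 2 counts no fold is given.

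Trbc2 encodes 1 of the 2 constant regions of the T cell receptor beta chain. It lies on the plus strand of chromosome 6 (41523664 to 41525286, ENSMUSG00000076498), and the other, Trbc1, lies just before it. The first constant exons of both genes are 375 bases long in GRCm39 and differ at 1 position. Of the 269 stretches of 150 bases in the exons of Trbc2, 110 (40.9%) occur in the same form in Trbc1. The study discarded reads that mapped to several places. Reads were sequenced in pairs, and how often the mate of such a read placed the pair in 1 of the genes was not tested, so the division of reads between Trbc1 and Trbc2 is uncertain.

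The counts of Trbc2 were 0, 0 and 14 in the siControl livers and 6, 1 and 1 in the siAATF livers. Its levels were 0, 0 and 7.80 CPM in the siControl livers and 0.207, 0.201 and 0.0554 CPM in the siAATF livers. Only siControl replicate 3 was high, and the limit that 3 counts set in the other siControl libraries, which had 0 counts, was above every siAATF level. The log2 fold change was -4.30 (standard error 1.32, adjusted p = 0.0250 by edgeR), and without siAATF replicate 1 it was -4.66 with an adjusted p of 0.0529. Without siControl replicate 3 the group had 0 counts of Trbc2. Trbc1 had 5, 1 and 11 counts in the siControl livers and 3, 1 and 9 in the siAATF livers, a log2 fold change of -3.98 (adjusted p = 0.00616 by edgeR). Its counts were spread over all 6 libraries.

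Per mouse count, 8 of 21 tested genes of the 3 T cell lists fell and 1 rose, beside 14.4% and 17.6% of all tested genes. Of 11 genes of the T cell receptor complex, 5 were tested, 4 fell (Cd3d, Cd3g, Trbc1 and Trbc2) and 0 rose, with a median log2 fold change of -3.98. The 11 genes together had 10, 3 and 64 counts in the siControl livers and 29, 4 and 30 in the siAATF livers. Cd3g had 1, 0 and 17 counts against 8, 2 and 6, so siControl replicate 3 again held most of the counts of its group. Of 16 coreceptor and signalling genes, 12 were tested and Cd8a, Cd8b1, Lck and Il7r fell. Cd8a and Cd8b1, the chains of the CD8 coreceptor, had 1, 4 and 13 and 0, 1 and 8 counts in the siControl livers but 0, 0 and 3 and 0, 0 and 1 in the siAATF livers, with log2 fold changes of -6.19 and -6.14 (adjusted p = 0.00351 and 0.00687 by edgeR). Il7r, the receptor of a lymphocyte survival factor, had 23, 0 and 27 counts against 2, 0 and 6 (-6.19, adjusted p = 0.000616).

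Zap70, a kinase of the T cell receptor pathway, rose (log2 fold change 1.68, adjusted p = 0.0376 by edgeR) with 3, 6 and 9 counts in the siControl livers and 513, 69 and 436 in the siAATF livers, while Lck, the kinase that acts before it, had 7, 1 and 3 siAATF counts. Cd4, which macrophages can also carry, had 7, 2 and 8 counts against 317, 27 and 12 and was not called (0.20, adjusted p = 0.883). Of 5 T cell transcription genes 4 were tested, and 0 were called by edgeR or had an unadjusted p under 0.05, with a median log2 fold change of -1.02. Tcf7, a factor of developing and resting T cells, had 5, 4 and 7 counts in the siControl livers and 139, 18 and 81 in the siAATF livers (-0.25, adjusted p = 0.780). Gata3 had 6 and 12 counts in all in the 2 groups and Lef1 3 and 12. Foxp3, the factor of regulatory T cells, had 0, 0 and 1 counts against 7, 0 and 4 (-0.53, adjusted p = 0.851).

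Ncr1 encodes NKp46, a receptor that triggers killing by NK cells. Its place is the plus strand of chromosome 7 (4340723 to 4348163, ENSMUSG00000062524). Its counts were 1, 0 and 0 in the siControl livers and 2, 0 and 13 in the siAATF livers. The levels were 0.802, 0 and 0 CPM against 0.0689, 0 and 0.720 CPM, with siControl replicate 1 and siAATF replicate 3 as the high libraries of overlapping groups. Per TMM-scaled mouse count the ratio of siAATF to siControl was 0.997 with a 95% counting interval of 0.153 to 41.95, and the adjusted p was 0.999 by edgeR. Klrb1c encodes NK1.1, a lectin-like receptor by which NK cells are recognised in some strains, and lies on the minus strand of chromosome 6 (128755448 to 128765604, ENSMUSG00000030325). It had 1, 0 and 1 counts in the siControl livers and 3, 0 and 1 in the siAATF livers, too few for testing and never more than 3 in a library.

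Gzma encodes granzyme A, a protease that NK cells and cytotoxic T cells release into target cells. The gene is on the minus strand of chromosome 13 (113230359 to 113237515, ENSMUSG00000023132). Its counts were 4, 3 and 10 in the siControl livers and 21, 1 and 17 in the siAATF livers. The levels were 3.21, 7.24 and 5.57 CPM in the siControl livers and 0.724, 0.201 and 0.942 CPM in the siAATF livers, and the groups did not overlap, as for Cd79a, which makes 2 of the 9 genes beside the 18.1% of all tested genes. The means were 5.34 ± 2.03 (SD, n = 3) and 0.622 ± 0.381 CPM, a log2 fold change of -2.90 (standard error 0.82, 95% interval -4.69 to -1.12, adjusted p = 0.0170 by edgeR). Leaving out 1 library at a time gave log2 fold changes of -3.21 to -2.54. Its adjusted p was then above 0.05 only without siControl replicate 3, as given above.

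The counts for NK and cytotoxic genes stand beside 14.4% of all tested genes that were lower and 17.6% that were higher. Of the 21 NK receptor genes, 6 were tested, 2 fell (Klrk1 and Il2rb) and 0 rose, with a median log2 fold change of -3.02. Klrk1, which encodes the stress-ligand receptor NKG2D, had 17, 4 and 9 counts in the siControl livers and 14, 2 and 20 in the siAATF livers, a log2 fold change of -3.72 (adjusted p = 0.00188 by edgeR). Il2rb, a chain of the receptors for interleukins on which NK cells depend, had 6, 2 and 25 counts against 7, 0 and 21 (-3.95, adjusted p = 0.00664). Itga2, an integrin chain by which NK cells of many strains are recognised, had 4, 2 and 20 counts against 7, 3 and 95 and was not called (-1.68, adjusted p = 0.225). The genes Klra1, Klra4, Klra7 and Klra8, of the Ly49 family whose gene content differs between BALB/c and the C57BL/6J reference, had 0 counts in every library. Of 5 NK transcription genes 4 were tested, and Eomes and Tbx21, factors of NK and memory T cells, fell by 4.13 and 4.61 on the log2 scale (adjusted p = 0.0316 and 0.0121) with 9 siControl counts each. Id2, an inhibitor of helix-loop-helix factors that many cell types make, rose by 1.29 (adjusted p = 0.0329) with at least 1201 counts in every siAATF library, and Nfil3, a factor needed for NK cell formation, had a log2 fold change of 0.94 and was not called (adjusted p = 0.0907). Among 12 cytotoxic effector genes 9 were tested and 8 fell, Gzma, Gzmb, Gzmc, Prf1, Nkg7, Ctsw, Xcl1 and Ccl5, with 0 higher and a median of -3.81. Ccl5, a chemokine of activated lymphocytes, had 28, 7 and 105 counts against 24, 2 and 62 (-4.34, adjusted p = 0.000583). Prf1, which encodes the pore-forming perforin, had 2, 2 and 5 counts against 3, 1 and 3 (-4.15, adjusted p = 0.00802).

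Across all 11 lymphocyte lists, 116 genes were found, 76 were tested, 27 fell and 3 rose (Derl3, Zap70 and Id2), and 10 had 0 counts in every library. Beside the 27 of 76 stands the 14.4% of all tested genes that were lower, and beside the 3 the 17.6% that were higher. The median log2 fold change was below that of all tested genes in each of the 10 lists plotted for B, T, NK and cytotoxic cells, and it was below that of the 8 leukocyte genes in none of them. The remaining list, lymphocyte precursors, had a median of 3.08 over 2 tested genes, or 0.19 with Vpreb1a at the bound that 3 counts over siControl allow. Leaving out siControl replicate 3 reduced the 27 to 10 and the 3 to 0, and with all gene counts as library size 4 of these genes were lower and 35 higher, beside 0.660% and 87.2% of all tested genes on that scale.

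Several lists of other cell types also had medians below that of all tested genes per mouse count. The median log2 fold change was -3.54 for 8 macrophage genes (5 lower), -4.33 for 5 neutrophil genes (4 lower), -3.61 for 5 fibroblast genes (4 lower) and -1.55 for 6 endothelial genes (3 lower, 1 higher), and with all gene counts as library size it was 0.63, -0.10, 0.71 and 2.92. Of the macrophage genes Clec4f, Vsig4 and Cd5l had fitted values above 0 and were not called (adjusted p = 0.0705, 0.415 and 0.848 by edgeR). The median was -0.14 for 7 genes of erythrocytes and platelets (2 lower), and the hepatocyte genes rose, as given above. Their part in the lymphocyte values was not tested.

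**Figure D3:**
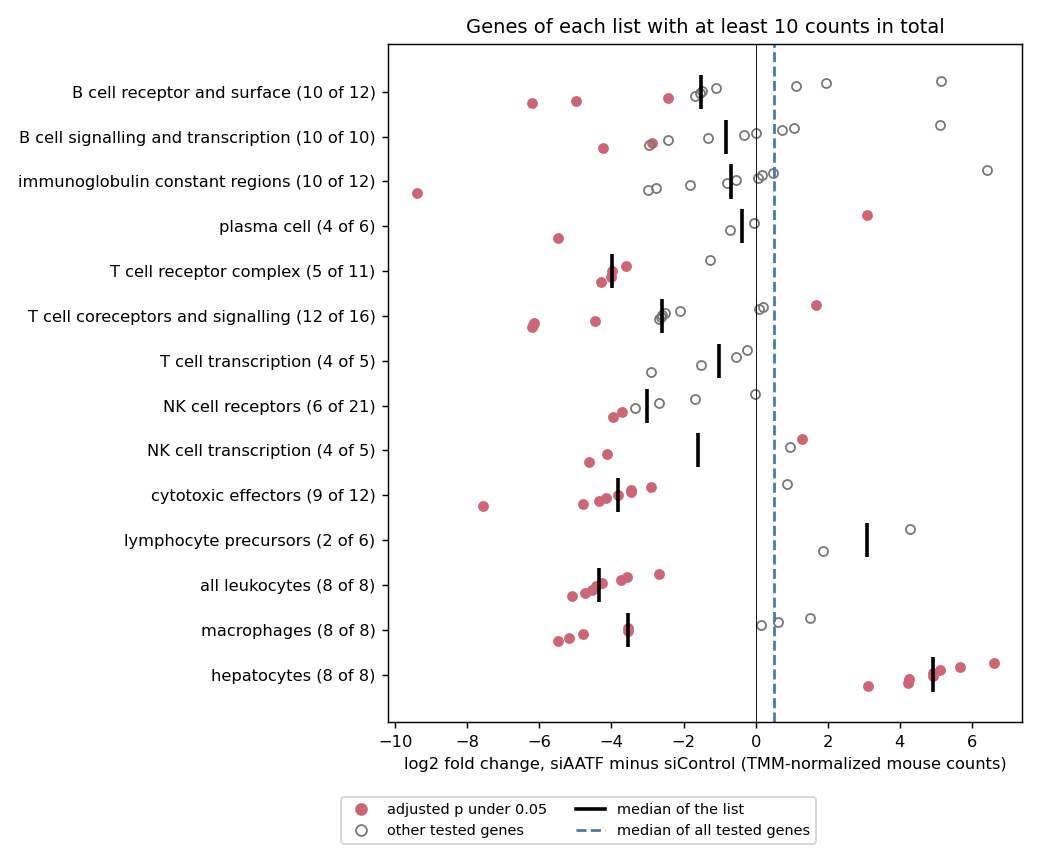
Points are tested genes of each list, placed by log2 fold change (siAATF minus siControl, TMM-normalized mouse counts, x axis), filled where the adjusted p was under 0.05. Numbers in brackets give tested genes and list size, the black line is the median of the list and the dashed line the median of all tested genes at 0.50. Genes of the T cell receptor complex and cytotoxic effectors have medians of -3.98 and -3.81, beside -4.35 for the leukocyte genes and -3.54 for macrophages, and immunoglobulin constant genes have a median of -0.68.

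The 2 immunoglobulin genes also led when levels were set against gene length. Per kilobase, siControl had 18.6 ± 10.2 (SD, n = 3) CPM of Ighm and 18.1 ± 19.8 of Igkc, followed by 5.31 ± 2.01 for Gzma, 3.76 ± 6.51 for Trbc2 and 2.23 ± 0.550 for Cd79a. Cd3e, Ncr1, Klrb1c and Ms4a1 followed with means of 0.0604 to 0.254 CPM per kilobase. In siAATF the order was Igkc with 23.3 ± 27.6, Ighm with 20.4 ± 1.70, Cd79a with 0.771 ± 0.616, Gzma with 0.619 ± 0.378 and Ms4a1 with 0.342 ± 0.274 CPM per kilobase. Trbc2, Ncr1, Klrb1c and Cd3e came last with 0 to 0.223. Neighbours in either order overlapped between libraries, except that Ighm lay above Cd79a in all siAATF libraries and Cd79a above Cd3e in the siControl libraries. In siControl replicates 1 and 2, Cd3e had 0 counts against 5 and 1 of Cd79a. The 95% counting intervals overlapped, in replicate 1 with 0 to 3.69 and 1.62 to 11.7 counts, so the order of Cd3e there is not resolved.

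Because the leukocyte genes themselves fell, the lymphocyte genes were also set against them. The 8 leukocyte genes had 1458, 462 and 2146 counts in the siControl livers and 1401, 242 and 1878 in the siAATF livers, similar numbers from very different mouse totals. Per 1000 of these leukocyte counts, Ighm had 38.4, 10.8 and 31.7 counts in the siControl livers and 785, 678 and 315 in the siAATF livers. Igkc had 4.12, 2.16 and 18.2 against 92.1, 70.2 and 282, Cd79a 3.43, 2.16 and 2.80 against 24.3, 4.13 and 19.2, and Ms4a1 0, 0 and 0.466 against 22.1, 4.13 and 18.1. The printed siAATF values of the 4 B cell genes were thus above every siControl value, and those of the other 5 genes overlapped. In replicate 2 of each group, however, Cd79a rests on 1 count, and Ms4a1 on 0 and 1, so their order there is not resolved. On this scale 83.1% of all tested mouse genes had siAATF values above every siControl value, so 4 of 9 genes is not more than the background.

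Whole lists were set on the same scale. Immunoglobulin constant genes had 48.2 ± 31.7 (SD, n = 3) counts per 1000 leukocyte counts in the siControl livers and 795 ± 119 in the siAATF livers, without overlap, beside the 83.1% of all tested genes that were higher without overlap. B cell receptor and surface genes had 62.8 ± 17.7 and 119 ± 12.6, B cell signalling and transcription genes 37.6 ± 11.7 and 182 ± 75.2, plasma cell genes 11.9 ± 1.43 and 215 ± 189 and lymphocyte precursor genes 0.466 ± 0.807 and 46.7 ± 26.4, also without overlap. The T cell receptor complex had 14.4 ± 13.4 and 17.7 ± 2.58, the NK receptors 27.5 ± 5.66 and 56.5 ± 33.9, and the cytotoxic effectors 57.4 ± 30.2 and 57.1 ± 16.1, each with overlap between the groups. The groups had no overlap in the lists of Zap70 and Id2 and in the T cell transcription genes: T cell coreceptors and signalling genes had 39.1 ± 11.9 and 454 ± 180, T cell transcription genes 9.65 ± 8.52 and 90.8 ± 35.3, and NK cell transcription genes 96.6 ± 26.4 and 4381 ± 1694. Single genes carried several of these sums. Derl3 held 657 of the 756 siAATF counts of the plasma cell list, and without it the list had 10.3, 12.99 and 9.79 in the siControl livers and 22.8, 16.5 and 33.5 in the siAATF livers. Dntt held 177 of the 194 siAATF counts of the precursor list, Zap70 1018 of the 1506 of the T cell coreceptor and signalling list and Tcf7 238 of the 276 of the T cell transcription list, and without that gene the groups overlapped in each of these 3 lists. Id2 held 11176 of the 13149 siAATF counts of the NK transcription list, which had 15.1, 15.2 and 26.6 without it in the siControl livers and 903, 583 and 302 in the siAATF livers. Leaving out these genes was chosen after seeing the data. In the NK transcription list without Id2, Nfil3 held most of the siAATF counts (1263, 140 and 557), whereas Eomes and Tbx21 fell, as given above. Gzma alone had 2.74, 6.49 and 4.66 against 14.99, 4.13 and 9.05. These ratios are descriptions without a test.

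**Figure D4:**
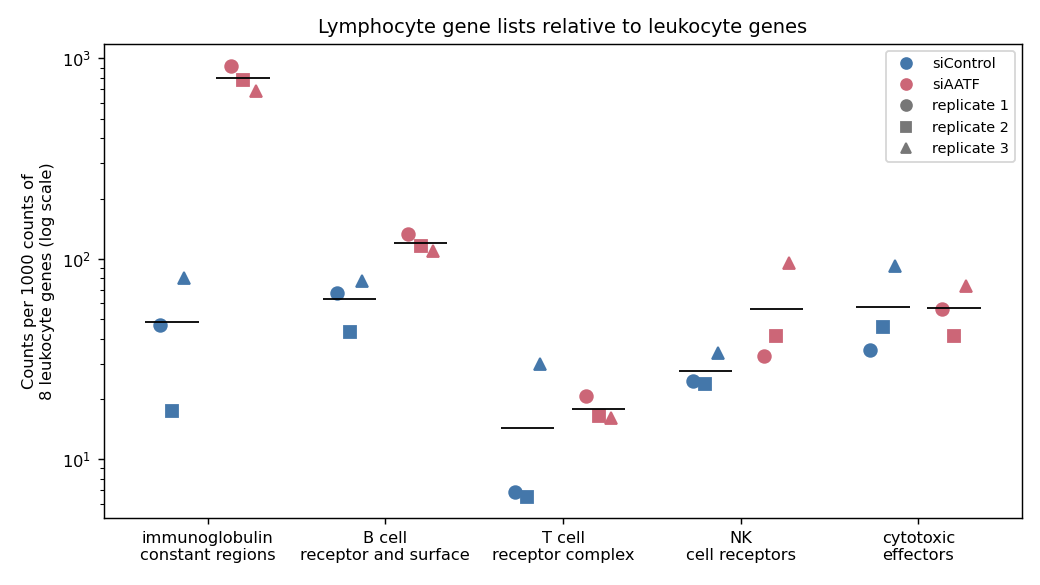
Counts of 5 lymphocyte lists per 1000 counts of 8 leukocyte genes are plotted on a log scale for each library (blue, siControl; red, siAATF; symbols, replicates 1 to 3), with lines at the group means. Immunoglobulin constant genes lie at 17.3 to 80.6 in the siControl livers and 685 to 921 in the siAATF livers, whereas the cytotoxic effectors overlap at 34.98 to 91.8 and 41.3 to 73.5.

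The size of the fold changes, and the direction of 5 of the 7, depended on the total against which counts were scaled. When levels were expressed as CPM of both species' counts, Ighm had 1.53, 0.183 and 1.26 CPM in the siControl livers and 25.6, 13.6 and 16.7 CPM in the siAATF livers, and Gzma had 0.110, 0.110 and 0.185 against 0.489, 0.0827 and 0.481. On this scale 7 of the 9 genes had a higher mean in the siAATF livers, and 3 of them, Ighm, Igkc and Ms4a1, had no overlap between the groups, beside 83.9% of all tested genes, although Ms4a1 had only 1 count in siAATF replicate 2 and 0 in siControl replicates 1 and 2. With all gene counts as library size, 5 genes were higher in siAATF (Ighm, Igkc, Cd79a, Ms4a1 and Ncr1), 0 were lower, beside 87.2% of all tested genes that were higher and 0.660% that were lower. The log2 fold change of Gzma was then 1.41 (adjusted p = 0.167 by edgeR) and that of Trbc2 -0.18 (adjusted p = 0.885). This scaling moved the median of all tested genes from 0.50 to 4.66, so that Ighm at 4.21, Igkc at 4.30, Cd79a at 2.71, Ncr1 at 3.67 and Gzma at 1.41 lay below that median and Ms4a1 at 5.73 above it. Scaling by mouse library size alone moved the median to -1.30 and called 4 genes lower, Ighm (-1.71), Cd79a (-3.24), Trbc2 and Gzma, beside 40.3% of all tested genes. The list medians shifted likewise, to 0.11 for the T cell receptor complex, 0.43 for the cytotoxic effectors, 3.35 for the immunoglobulin constant genes and -0.08 for the leukocyte genes with all gene counts as library size.

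**Figure D5:**
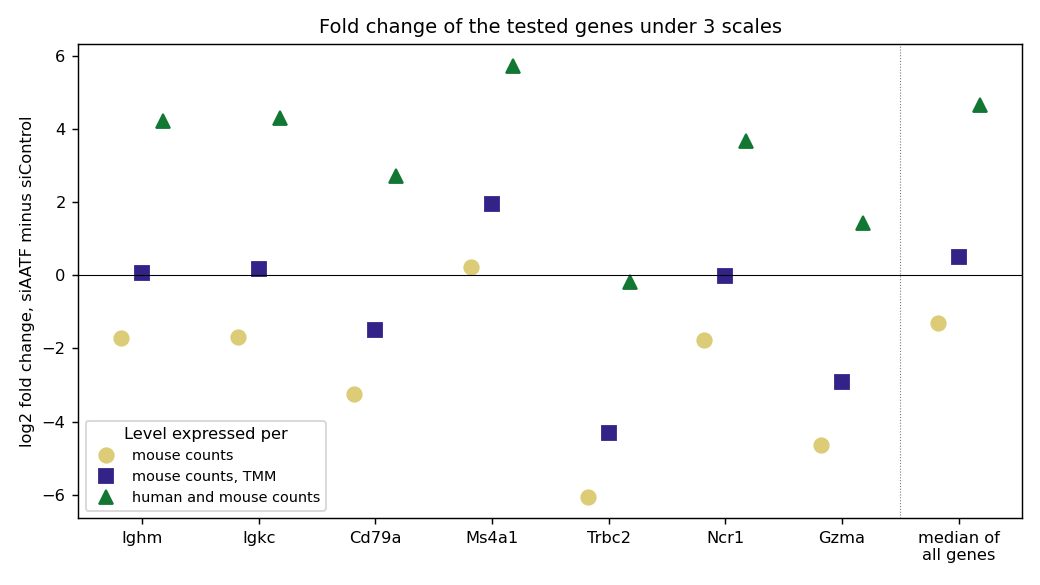
The log2 fold change (siAATF minus siControl, y axis) of the 7 tested genes and, at the right, the median of all tested genes is plotted for counts scaled by mouse counts (circles), by mouse counts with TMM (squares) and by human and mouse counts (triangles). The medians are -1.30, 0.50 and 4.66, and the genes shift with them, so that Ighm passes from -1.71 over 0.05 to 4.21.

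Genes with a pattern like that of each lymphocyte gene were sought among 9466 mouse genes with a mean of at least 50 counts, by Pearson's r of log2(CPM + 1) over the 6 libraries. For Ighm these were Thumpd1 (r = 0.993), Ess2 (0.990) and Setdb1 (0.987), each with 0 counts in siControl replicate 2, the shallowest library. For Gzma they were Slc25a12 (0.999), Pcdh17 (0.997) and Klf4 (0.995), and for Cd79a Ptbp1 (0.994), Morf4l2 (0.993) and Atp6v0c-ps2 (0.991). For Igkc they were Chpf2 (0.970), Tmc6 (0.951) and Flot2 (0.941), and for Ms4a1 H1f0 (0.989), Slc7a2 (0.982) and Parva (0.975). Chic2 was nearest to both Cd3e (0.971) and Trbc2 (0.962), Galnt2 to Ncr1 (0.987) and Cep120 to Klrb1c (0.994). None of these is in the lymphocyte lists, and the 6 points share depth and group, so the values are a description only.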

How the data were processed

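RNA of 6 livers was sequenced from libraries of a SMART-Seq kit. The authors trimmed reads with Cutadapt, aligned them with STAR 2.7.11 to a joint reference of the mouse and human genomes, dropped reads with several mapping places or with places in both species, and counted the rest on genes with featureCounts 2.0.1. The deposited values are these raw counts, without normalization, in a human and a mouse table, with gene positions and lengths. Whether counting used the strand is not given in the sources used here. Groups were taken from the sample titles. The labels call the libraries of a group replicates, so p-values measure the spread between these 6 samples. Mouse identifiers were named from GENCODE (GRCm39), which held 56323 of 56884.

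The mouse table was fitted with edgeR 4.0.16 (quasi-likelihood test, TMM normalization, total of at least 10 counts, group as the only term) in R 4.3.3, with Benjamini-Hochberg adjustment over all genes and a call at an adjusted p under 0.05. The standard error is the log2 fold change over the root of the F statistic. Counting intervals are exact at 95%. The 9 genes and the gene lists were chosen with earlier results of these data known. Named genes are the 9 genes, the 3 of highest mean CPM and the called genes of each list (genes in lists of other cell types were mostly left unnamed), and the 3 most alike genes. Other genes were named after their values were seen. On simulated counts, the fit called 129 of 185 genes changed by a log2 fold change of 3 (69.7%) and 6 unchanged ones. Alternatives were DESeq2 1.42.0, limma-voom (limma 3.58.1), other scalings and filters, the replicate block, leaving out each library, thinning to the smallest mouse total, and the criteria of the study (unadjusted p under 0.05 and an absolute log2 fold change of at least 2). T cell receptor gamma constant genes were matched by RefSeq synonyms. Of the human table, only library totals were used, which were 27159173 to 53138655 counts in the siControl libraries. How many reads of human cells were counted on mouse genes was not tested. The exons compared are those of GRCm39. A gene of the T cell transcription list and the exon sequences are not reported here.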

Additional observations from a re-analysis of the deposited data

How the results depend on the processing

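DESeq2, limma-voom, RLE, upper quartile normalization, the criteria of the study and the replicate block each left 2 of the 9 genes lower and 0 higher. The mouse genes called (5762) were 15830 with all gene counts as library size, 1745 under a minimum of 10 counts per library and 3129 after thinning, and 3333 to 6079 with a library left out. The 2 lower genes became 4 by mouse library size alone, 0 with all gene counts as library size, 0 under the minimum of 10 counts per library, 1 with filterByExpr, 0 after thinning and 0 to 2 with a library left out (0 without siControl replicate 3, 1 without siAATF replicate 1), and the 0 higher genes became 5 with all gene counts as library size. Under that minimum 0 of the 9 genes were tested, and after thinning 2 were. Without a filter 3 genes were lower, Cd3e (2 counts, adjusted p = 0.0437 by edgeR) being the third. Of the genes in lymphocyte lists, the 27 lower became 45 by mouse library size (beside 40.3% of all tested genes), 4 by all gene counts (beside 0.660%), 0 under the minimum per library, 17 with filterByExpr, 3 after thinning and 10 to 28 with a library left out, and the 3 higher became 1 by upper quartile, 0 by mouse library size, 35 by all gene counts (beside 87.2%), 1 under the minimum per library, 0 after thinning, 1 by the criteria of the study and 0 to 4 with a library left out.

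The log2 fold change of Ighm changed sign to -0.036 by DESeq2, -0.036 by RLE, -0.21 by upper quartile, -1.71 by mouse library size, -0.052 with filterByExpr and -1.02 after thinning, with a range of -0.26 to 0.34 when a library was left out. That of Igkc changed sign to -0.10 by limma-voom, -0.16 by upper quartile, -1.68 by mouse library size and -0.0079 with filterByExpr, with a range of -1.41 to 1.62. That of Ncr1 was 3.67 by all gene counts and 0.091 without a filter, with a range of -0.94 to 4.73. That of Ms4a1 was 0.51 by limma-voom, with a range of 1.33 to 6.58, the highest without siControl replicate 3, which held its only siControl count. By all gene counts Cd79a was 2.71 and Gzma 1.41. Across all alternatives the adjusted p of Gzma was 0.000281 to 0.167 and that of Trbc2 0.000608 to 0.885. For changes that the scaling or fewer tested genes do not make by construction, the cause was not tested. Whether replicate numbers pair the libraries cannot be decided from 3 libraries per group. Same-numbered deviations from the group means correlated at 0.15, 0.21 and -0.02, and not every library was nearest to its own number. With the replicate block 6766 mouse genes, 29 lower and 4 higher list genes were called. Depth limits all of these values, since 7 of the 9 genes had at most 17 counts over the siControl libraries.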

Other observations

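Chemokines and survival factors that attract or keep lymphocytes were in part lower in siAATF per mouse count. Of 10 such genes 8 were tested, 4 fell and 0 rose, beside 14.4% and 17.6% of all tested genes, with a median log2 fold change of -1.55 beside 0.50. With all gene counts as library size 5 of them were higher and 0 lower, beside 87.2% and 0.660% of all tested genes, with a median of 2.61. Cxcl9 and Cxcl10, which attract activated T and NK cells, had 58, 23 and 109 and 50, 17 and 127 counts in the siControl livers and 142, 44 and 276 and 44, 3 and 47 in the siAATF livers. Their log2 fold changes were -2.48 and -4.91 (adjusted p = 0.00111 and 4.9e-05 by edgeR). Tnfsf13b, which encodes the B cell survival factor BAFF, had 28, 1 and 30 counts against 16, 3 and 8 and fell by 4.82 on the log2 scale (adjusted p = 0.000233). Il15, the cytokine on which NK cells depend, had 4, 1 and 18 counts against 21, 4 and 16 and fell by 2.81 (adjusted p = 0.0136). Cxcl12, which holds B cell precursors in their niche, had 63, 14 and 333 counts against 7910, 971 and 3268 and was not called (1.23, adjusted p = 0.123).

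Of 6 genes of lymphocyte precursors, 3 had no count. Rag1, Rag2 and Igll1, which act in receptor assembly and in the precursor receptor of B cells, had 0 counts in every library. Dntt, the enzyme that adds bases at receptor junctions, had 0, 0 and 3 counts in the siControl livers and 89, 5 and 83 in siAATF (log2 fold change 1.88, adjusted p = 0.216 by edgeR). Vpreb1a, another part of the precursor receptor, had 0 counts in the siControl livers and 13, 0 and 3 in the siAATF livers, and 3 counts over the siControl group would already exceed the siAATF level per mouse count. Vpreb1b had 1 count in all. Ccl21a, a chemokine of lymphoid tissue, had 0 counts in the siControl livers and 420, 9 and 9 in siAATF (adjusted p = 0.0539 by edgeR). Per TMM-scaled mouse count it was at least 9.70-fold higher against 3 counts over the siControl group. That limit rests on siAATF replicate 1: without it the siAATF level of 0.782 CPM lay below the 0.868 CPM of 3 counts over siControl, a comparison chosen after seeing the data.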
